A study of Mus musculus with 4 samples.

Results

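The clustered protocadherins are cell surface adhesion proteins encoded by 3 neighbouring gene clusters, alpha, beta and gamma, on mouse chromosome 18. They were taken as every gene whose symbol begins with Pcdha, Pcdhb or Pcdhg in the deposited table of all genes, which gave 58 of its 49548 genes, with 14 in the alpha, 22 in the beta and 22 in the gamma cluster. The 14 alpha genes carry 13 symbols, because Pcdha11 stands for 2 gene identifiers. Their RNA was measured in 4 libraries of Neuro2A cells, a mouse neuroblastoma line, with a kit that reads the 3′ end of each messenger RNA. There were 2 libraries of a stable line with a doxycycline-inducible Prox1 transgene (Prox1-Tet-On) and 2 of a stable line with inducible GFP (GFP-Tet-On). The protocol names doxycycline at 1 µg/mL for both lines, and both were kept under the antibiotics G418 and hygromycin B. The sources used here give neither the time after induction nor whether a line is 1 clone. No library without doxycycline was analysed here. As the transgenes were carried by separate lines, the effect of the transgene and a difference between the lines cannot be told apart.

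Each clustered protocadherin is a transmembrane protein with cadherin repeats that binds the same isoform on a neighbouring cell. A neuron uses only some of the isoforms, and the combination on its surface lets its branches tell self from non-self. In the alpha and gamma clusters each gene has its own promoter and a large first exon, which is spliced to constant exons common to the whole cluster and ending in one common 3′ untranslated region. The beta genes have no constant exons, and each ends in a 3′ untranslated region of its own. The factor CTCF and the cohesin ring join the promoters to distant enhancers and so set which isoform is used. Alpha protocadherins are known in mice for their part in the growth and tiling of serotonergic axons, and gamma protocadherins for neuron survival and dendrite self-avoidance.

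The libraries held 6798014 to 7683100 normalised counts, that is, read counts after the authors' scaling to a common depth. Prox1, the homeodomain factor encoded by the transgene, measured 1304 and 2505 normalised counts in Prox1 and 2 and 3 in GFP libraries, in the direction of the labels. Of the markers of sympathetic neuroblastoma 11 were tested, of which 8 were lower and 1 was higher in Prox1 cells. Their summed level was 8211 and 7091 in Prox1 and 14708 and 14084 in GFP libraries. Markers of glia, fibroblasts, blood, endothelium and epithelium summed to 0 to 58 normalised counts per list and library, and among their defining members Sox10, Col3a1, Ptprc, Cdh5 and Krt18 were at 0 throughout. The part of the lower sympathetic markers in the results below was not tested. In bulk RNA, fewer cells that use a gene and less RNA per cell cannot be told apart.

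On mm10 the alpha genes begin between positions 36930184 and 37143503 and all end at the common 3′ end near 37187661. The beta genes follow from 37264938 to 37524479, and the gamma genes from 37661793 to 37841873, all on the plus strand. The GENCODE M21 annotation of the same build, whose gene spans equal those of the table for all 58 genes, places the common alpha 3′ untranslated region at 37185254 to 37187657 and that of gamma at 37840127 to 37841873. In the last 1000 bases of the transcripts, every window of 50 bases of every alpha and every gamma gene also occurs in another clustered protocadherin. In 16 of 22 beta genes 0.0% of the windows do. The highest share in the beta cluster, 42.7%, was in Pcdhb21, whose end overlaps the start of Pcdhb22.

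The deposited values showed this structure directly. Of the 14 alpha genes 12 held the same value as each other in each library, and the other 2 held that value or slightly more. Of the 22 gamma genes 13 held one common value per library and 9 a little more, with at most 6.05% above the common value in alpha and 5.78% in gamma. The same 3′ reads had therefore been counted for every gene of a cluster, so the 14 alpha values are 1 measurement and the 22 gamma values another. In what follows the shared value is the lowest value over a cluster's genes in a library. Values of single alpha or gamma genes do not tell which isoform was made.

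The shared alpha signal was lower in Prox1 cells. Normalised counts were 182 and 163 in Prox1 and 388 and 446 in GFP libraries, means of 172.5 ± 13.4 and 417.0 ± 41.0 (SD, n = 2). Both Prox1 libraries lay far below both GFP libraries. The ratio of means was 2.42 in favour of GFP. With limma on log2(normalised count + 1), on genes averaging 10 normalised counts or more, each alpha gene at the shared value, Pcdha3 among them, differed by -1.27 ± 0.23 (SE), with an adjusted p of 0.00317. Over all 14 genes the limma adjusted p ran from 0.00277 to 0.00337. In the authors' deposited table all 14 passed as well, with adjusted p of 0.0295 to 0.0387. They made up 2.54% of the 551 genes that passed there, although they carry 1 signal. With any 1 of the 4 libraries left out, no gene of the table passed the adjusted threshold in limma. The log2 difference of the shared alpha value then ran from -1.37 to -1.17. With what single genes held above the shared value added to it, the alpha signal stayed between 0.381 and 0.439 of the GFP level.

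The shared gamma signal did not pass the test. It was 403 and 398 normalised counts in Prox1 and 332 and 377 in GFP libraries, means of 400.5 ± 3.5 and 354.5 ± 31.8 (SD, n = 2). The Prox1 libraries lay above the GFP libraries, by a margin smaller than the gap between the GFP libraries. For a gene at the shared value such as Pcdhga3 limma gave a log2 difference of 0.18 ± 0.22 (SE) and an adjusted p of 0.611. Over the 22 gamma genes the adjusted p ran from 0.591 to 0.615, and in the authors' deposited table from 0.909 to 0.917.

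**Figure D1:**
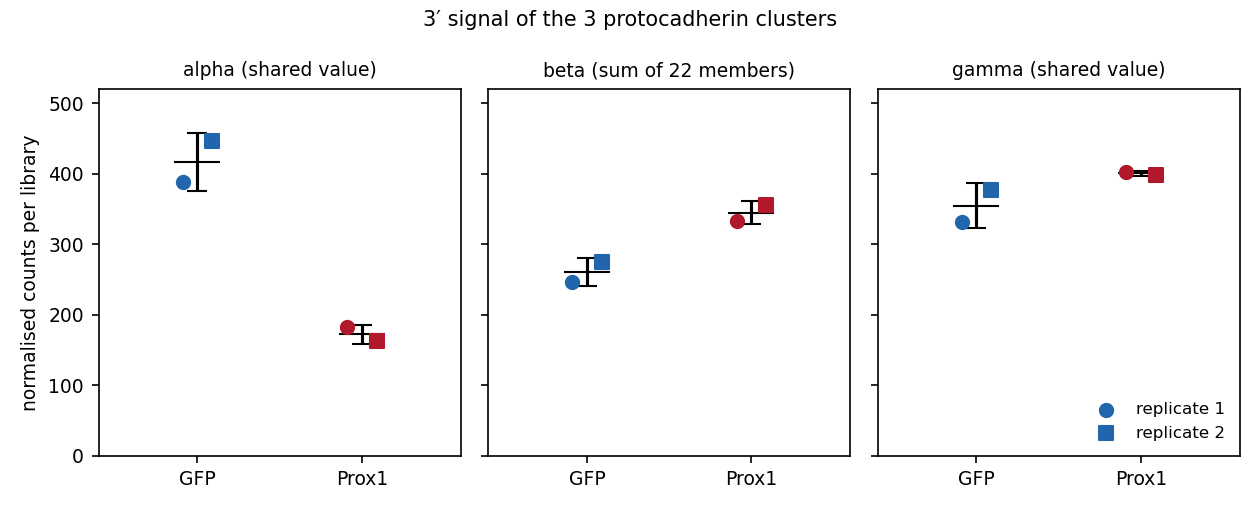
Normalised counts per library (vertical axis, from 0) of the shared alpha value, the sum of the 22 beta genes and the shared gamma value, for GFP and Prox1 libraries; points are libraries, the horizontal line is the mean and the bar the SD (n = 2). The alpha value is 163 and 182 in Prox1 libraries against 388 and 446 in GFP libraries, while the gamma values, 398 and 403 against 332 and 377, lie close together.

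Within a library, the ratio of the alpha to the gamma value does not depend on how libraries are scaled to each other. It was 1.17 and 1.18 in the GFP libraries and 0.452 and 0.41 in the Prox1 libraries. The 95% counting intervals (exact binomial, from each pair of values treated as reads) were 1.01 to 1.36 and 1.03 to 1.36 in GFP cells. In Prox1 cells they were 0.377 to 0.539 and 0.339 to 0.493, well apart from the others. They cover counting error only. The mean ratio in Prox1 cells was 0.366 of that in GFP cells. No p is given, because the clusters were chosen with earlier results known, and 2 libraries against 2 could not go below 0.333 in an exact two-sided permutation test. Per 1000 bases of the length the authors used for each gene (3655 for most alpha and 2998 for many gamma genes), the shared alpha level was 106 and 122 in GFP libraries, close to the gamma level of 111 and 126. In Prox1 libraries the alpha level per 1000 bases was 49.8 and 44.6 and the gamma level 134 and 133. As the kit reads 3′ ends, a count need not grow with this length. The levels per 1000 bases therefore do not compare the amounts of alpha and gamma RNA.

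**Figure D2:**
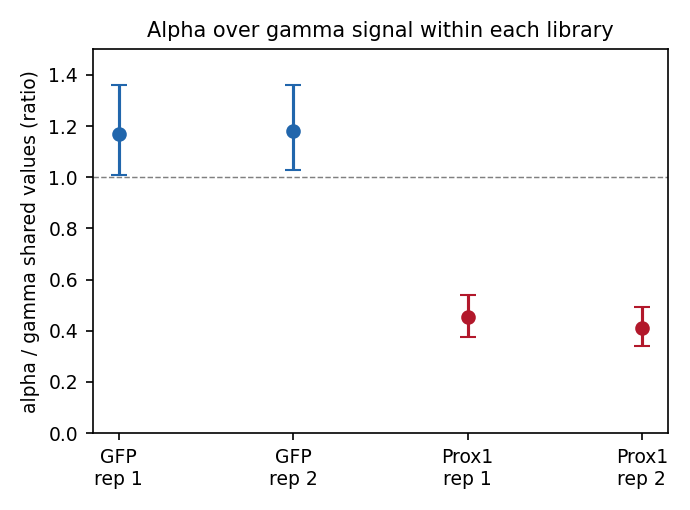
Ratio of the shared alpha to the shared gamma value (vertical axis, no unit) in each of the 4 libraries, with exact binomial 95% counting intervals as bars and a dashed line at 1. The GFP libraries sit at 1.17 and 1.18, the Prox1 libraries at 0.452 and 0.41, and the intervals of the groups do not meet.

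The excess of a gene over the shared value is the part of its count that lies outside the common 3′ end. Pcdha6 had the largest excess in the alpha cluster. It was 22 and 27 normalised counts in GFP libraries and 6 and 6 in Prox1 libraries, a ratio of 4.08. GENCODE M21 gives Pcdha6 a further stretch of 3′ untranslated region at positions 36968246 to 36970137, far upstream of the common end, and the authors' length for it, 9790 bases, was the longest of the cluster. The excess thus went the same way as the shared alpha value, at 5.67% and 6.05% of it in GFP and 3.3% and 3.68% in Prox1 libraries. The other alpha excess, of 3 normalised counts, was in 1 Prox1 library in a row of Pcdha11. As excesses are differences of rounded values, 1 count is within rounding.

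In the gamma cluster Pcdhgc4, 1 of the C-type isoforms, which stand at the downstream end of the cluster and are more like each other than like the rest, had the largest excess. It was 18 and 23 normalised counts in Prox1 and 17 and 16 in GFP libraries. These values lie close together. The whole Pcdhgc4 value, at 421 and 421 against 349 and 393, did not pass (difference 0.18 ± 0.21 SE, limma adjusted p 0.597). The highest excess of any other gamma gene was 5, in Pcdhgb2 and Pcdhga12. Pcdhga12 was at 4 and 5 above the shared value in Prox1 and at 1 and 2 in GFP libraries.

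**Figure D3:**
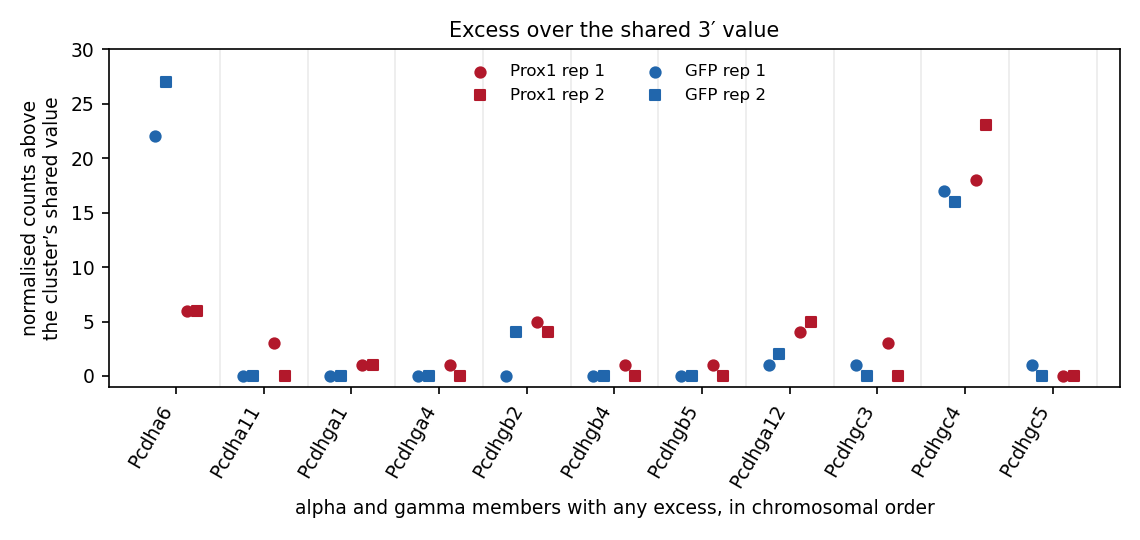
Normalised counts above the cluster's shared value (vertical axis) for the alpha and gamma genes that had any, in chromosomal order; red points are Prox1 and blue points GFP libraries, circles replicate 1 and squares replicate 2. Pcdha6 is at 22 and 27 in GFP against 6 and 6 in Prox1 libraries, Pcdhgc4 at 16 to 23 in all 4, and the others at 5 or less.

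The beta genes, most of them with a 3′ end not shared with another member, each had low counts and were mixed in direction. Their sum was 333 and 356 normalised counts in Prox1 libraries and 246 and 275 in GFP libraries, means of 344.5 ± 16.3 and 260.5 ± 20.5 (SD, n = 2), a ratio of 1.32. The groups did not overlap in this sum. Between 18 and 20 of the 22 genes were above 0 in a library. Only Pcdhb1 was at 0 in all 4 libraries, and so at under 3 normalised counts in each by counting error alone.

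Pcdhb22, the last beta gene before the gamma cluster (positions 37517871 to 37524479), was the one member of the beta cluster that passed. It stood at 48 and 41 normalised counts in Prox1 and 14 and 12 in GFP libraries, means of 44.5 ± 4.9 and 13.0 ± 1.4 (SD, n = 2), a ratio of 3.42. Limma gave a log2 difference of 1.70 ± 0.44 (SE) and an adjusted p of 0.0198, whereas Pcdhb22 did not pass in the authors' deposited table (0.205). With 1 library left out the limma adjusted p was 0.17 to 0.246. Pcdhb22 made up 14.4% and 11.5% of the beta sum in Prox1 and 5.69% and 4.36% in GFP libraries. Without it the sum was 285 and 315 against 232 and 263, a ratio of 1.21. The start of Pcdhb22 overlaps the end of Pcdhb21, and the part of this overlap in the Pcdhb22 value was not tested.

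A further 6 beta genes were higher in both Prox1 libraries than in either GFP library and did not pass. Both Prox1 libraries lay above both GFP libraries in 28.9% of all genes tested, called or not. Pcdhb5 was at 31 and 40 against 14 and 22 normalised counts (limma adjusted p 0.162). Pcdhb20 was at 44 and 45 against 17 and 33 (0.18), and Pcdhb4 at 25 and 30 against 18 and 13 (0.269). In these 3 genes the ratio of means lay between 1.77 and 1.97. Pcdhb21 was at 23 and 26 against 19 and 6, with GFP libraries that differed widely from each other. Pcdhb7 was at 43 and 47 against 29 and 40, and Pcdhb18 at 16 and 18 against 11 and 10. Pcdhb7 made up a like share of the beta sum in every library, 11.8% to 14.5%.

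Among the 11 beta genes tested, the lowest difference was in Pcdhb12. It was at 5 and 5 normalised counts in Prox1 and 10 and 20 in GFP libraries (difference -1.34 ± 0.67 SE, limma adjusted p 0.189). Pcdhb6, at 13 and 20 against 21 and 27, also had both Prox1 libraries below both GFP libraries. Pcdhb17, at 34 and 28 against 34 and 51, and Pcdhb11, at 11 and 19 against 12 and 2, overlapped between the groups. Pcdhb17 was the highest beta gene in both GFP libraries, while the highest was Pcdhb22 in one Prox1 library and Pcdhb7 in the other. The 11 beta genes under the minimum had a mean of 9.5 normalised counts or less and together held 40 and 37 in Prox1 and 47 and 39 in GFP libraries. Among these, Pcdhb3 was at 3 and 0 against 12 and 6, a lower Prox1 over GFP ratio than that of Pcdhb12.

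**Figure D4:**
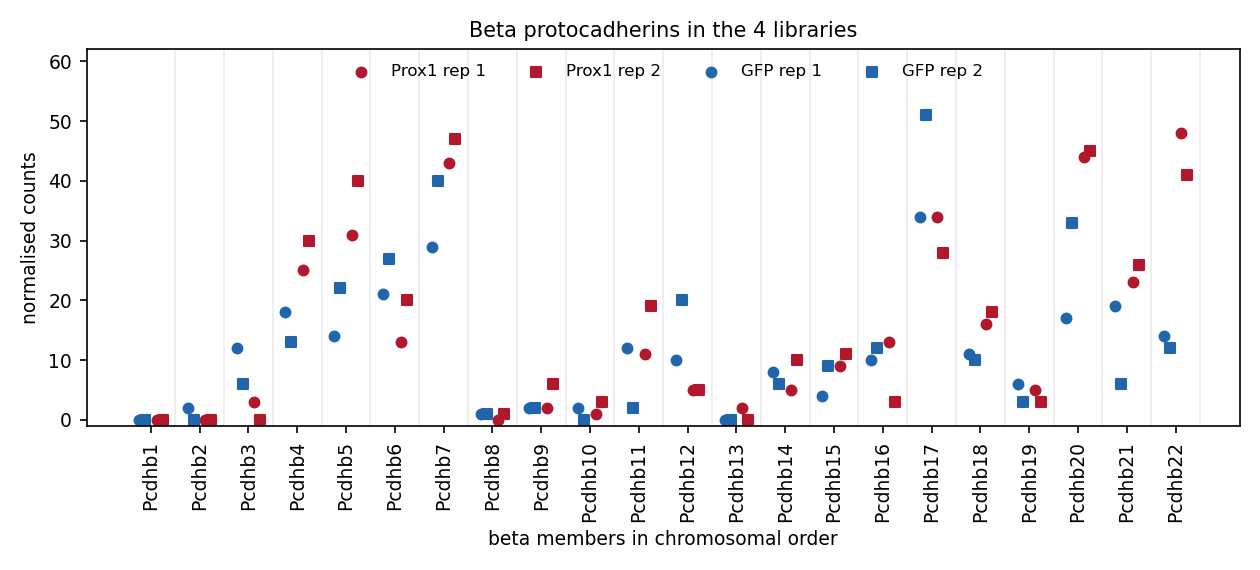
Normalised counts (vertical axis) of the 22 beta genes in chromosomal order; red points are Prox1 and blue points GFP libraries, circles replicate 1 and squares replicate 2. Pcdhb22 at the right end has Prox1 libraries at 48 and 41 against 14 and 12, and Pcdhb12 has them at 5 and 5 against 10 and 20.

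Counted gene by gene, 47 of the 58 clustered protocadherins passed the minimum of 10, and limma called 15 of them, the 14 alpha genes lower and Pcdhb22 higher. Over all 13290 genes tested 16.0% were called, 7.57% higher and 8.41% lower, and 4.62% passed in the authors' deposited table. With alpha and gamma each entered as 1 row, 2 of 13 rows were called, against 15.7% of the 13256 rows of that fit. Among the 11 beta genes tested the Prox1 libraries were both above the GFP libraries in 7 and both below in 2, against 28.9% and 29.9% of all genes tested. A beta gene high in 1 group only could pass the minimum through that group, so these counts describe the genes tested and not the cluster. The log2 differences of these beta genes ran from -1.34 to 1.70, with a median of 0.80, where all genes tested had a median of 0.00.

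Genes around the clusters were taken as all others within 500 kb of the span from the first to the last member. Of 65 such genes 25 were tested, 2 rose and 0 fell. Taf7, an intronless gene between the beta and gamma clusters (minus strand, positions 37640491 to 37644204) that encodes a subunit of the general transcription factor TFIID, rose. It was at 115 and 122 normalised counts in Prox1 and 42 and 26 in GFP libraries, a ratio of 3.49 (difference 1.81 ± 0.34 SE, limma adjusted p 0.00403). It also passed in the authors' deposited table (0.0225). Ik, upstream of the alpha cluster and encoding a splicing factor, rose 1.74-fold, from 591 and 444 to 964 and 832 (adjusted p 0.0275). Ik did not pass in the authors' deposited table (0.263). With 1 library left out neither passed, at 0.185 to 0.246 for Taf7 and 0.189 to 0.293 for Ik. Diaph1 and Hdac3, which follow the gamma cluster, did not pass, and Hdac3 was at 126 and 158 against 121 and 154. Gm8242, which like Taf7 lies between the beta and gamma clusters, was at 67 and 78 against 72 and 72 and did not pass. The 25 neighbours tested had a median log2 difference of 0.10, and 8.00% of them were called, against 16.0% of all genes tested.

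**Figure D5:**
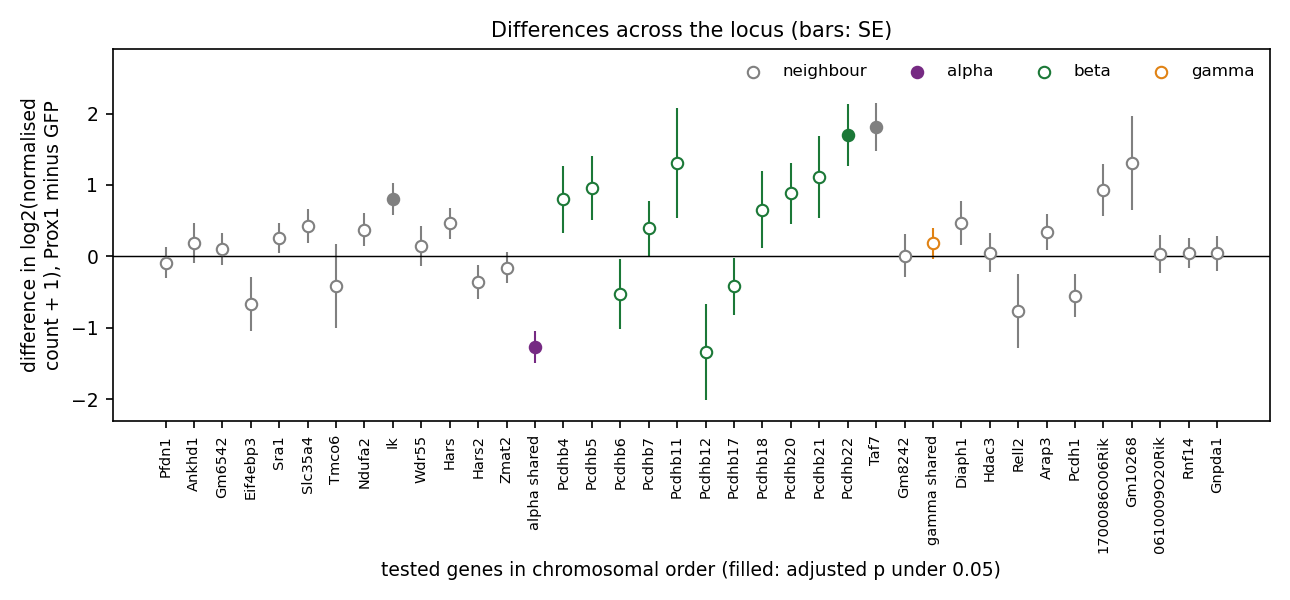
Difference in log2(normalised count + 1), Prox1 minus GFP (vertical axis), of the tested genes of the locus in chromosomal order, with the shared alpha and gamma values drawn once each; bars are limma's SE and filled points have an adjusted p under 0.05. The alpha value is at -1.27, Pcdhb22 at 1.70, Taf7, between the beta and gamma clusters, at 1.81, and the gamma value at 0.18.

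Among 24 known regulators of the clusters, all tested, 2 rose and 0 fell. Ehmt1, a histone H3 lysine methyltransferase, was at 1342 and 1758 normalised counts in Prox1 and 957 and 461 in GFP libraries, a ratio of 2.19 (limma adjusted p 0.0167). Stag1, a cohesin subunit, rose 1.97-fold, from 103 and 103 to 213 and 193 (0.0203). In the authors' deposited table neither passed, nor in limma without its variance trend or with 1 library left out (0.185 to 0.336 for Ehmt1 and 0.185 to 0.247 for Stag1). Ctcf and Trim28, named here after their values were seen, just missed the threshold in opposite directions. Ctcf was at 720 and 982 against 551 and 497 (limma adjusted p 0.0549). Trim28 was at 1386 and 1634 against 2460 and 2275 (0.0543). Neither of them passed in the authors' deposited table (0.394 and 0.501). Of the 24 differences 7 were positive and 17 negative. The median log2 difference of the list was -0.16, and 8.33% of it was called, against 16.0% of all genes tested (7.57% higher).

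Of 28 genes that work with protocadherins at the membrane or in their signalling 26 were tested, 3 fell and 0 rose. The list covers the kinases that protocadherin tails bind, the WAVE complex that builds branched actin, and the secretases that cut the proteins. Cyfip2, a WAVE complex subunit, fell 4.80-fold, from 122 and 89 to 16 and 28 normalised counts (limma adjusted p 0.00262). The kinase Src fell 5.73-fold, from 80 and 132 to 13 and 24 (0.00233). The receptor kinase Ret, which binds protocadherins and phosphorylates them and is named here after its values were seen, was at 1335 and 1687 against 3743 and 5538 (0.00148). All 3 also passed in the authors' deposited table, and none passed in limma with 1 library left out. Src and Ret are in a common cancer hotspot gene panel. Met, Kit and Abl1, other genes of such a panel, were uneven between the GFP libraries, at 10 and 14834, 2215 and 734, and 22765 and 557. In the Prox1 libraries Met and Kit were at 0 and 0 and Abl1 at 77 and 71, below both GFP libraries except that Met was low in 1 of these as well. The part of this in the Src and Ret values was not tested. The list had a median log2 difference of -0.22, and 11.5% of its tested genes were called, against 16.0% of all genes tested (8.41% lower).

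Protocadherins outside the clusters mostly had low counts or none. Of 13 listed, with Cdh23, the partner of Pcdh15 in hair cells, among them, only 3 reached the minimum of 10, and 4 were at 0 in all libraries. Pcdh17 fell 3.61-fold, from 40 and 25 to 10 and 8 normalised counts (limma adjusted p 0.0389). It did not pass in the authors' deposited table (0.335), and its limma adjusted p was 0.213 to 0.246 with 1 library left out. Pcdh1, which lies beyond the gamma cluster on the same chromosome, was at 192 and 384 against 437 and 363 and overlapped between the groups. The 1 call among these 3 tested genes is 33.3%, and over all genes tested 16.0% were called. Of 31 other genes of the cadherin superfamily 7 were tested, 2 fell and 0 rose. That is 28.6% of the 7, against 8.41% of all genes tested that were lower, and with so few tested it says nothing about the list. Cdh22, a type II cadherin, had 0 normalised counts in each Prox1 library against 40 and 51 in GFP cells, at least 15.2-fold lower against a floor of 3 counts per library (adjusted p 0.000633). Dchs1, a large cadherin of the planar polarity pathway, fell 2.14-fold, from 154 and 174 to 82 and 71 (0.0167). In the authors' deposited table Cdh22 passed and Dchs1 did not (0.182). With 1 library left out neither passed in limma (0.142 to 0.252). N-cadherin, Cdh2, chosen after its values were seen, was at 77 and 90 against 63 and 58.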

How the data were processed

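Libraries of 3′ messenger RNA ends (QuantSeq, Ion Proton) were prepared, per the labels' protocols, where the RNA integrity number exceeded 7. The authors' tool was DESeq and the build mm10, per the submitters' processing notes; aligner, counter, use of strand and annotation release were not stated there or in the labels. The deposited table holds log2 of a normalised count plus 1, where the count had been rounded after scaling, per the file headers and the values. It also holds a deposited signal, the normalised count per base of a length for each gene, and the authors' p-value and adjusted p for 11933 genes. For 18 of 21 beta genes with such a length it was 996 bases longer than the annotated 3′ untranslated region.

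The log2 was undone to whole numbers (relative deviation at most 3.47e-09). Since these are rounded, a count model was not run, and limma 3.58.1 (R 4.3.3; lmFit, eBayes with a trend) was fitted to log2(normalised count + 1) of 13290 genes with a mean of at least 10 over the 4 libraries, Prox1 against GFP (two-sided; adjusted after Benjamini-Hochberg; threshold 0.05). The fit was tested on simulated data. Such differences understate the change of low genes. Groups and replicate numbers come from the titles. The chi-square per degree of freedom between replicates was 21.1 (Prox1) and 22.3 (GFP), beyond sampling noise. No label says that replicates were separate cultures, so the p-values reflect only the spread among these libraries, possibly a technical one. The planned cluster signal was a sum with members of equal values counted once; since every member holds the shared reads, the shared value was counted once and each member's excess added, and the planned sum became an alternative. Members and lists were chosen with earlier results of these data known. Named genes were Prox1, every clustered protocadherin with a mean of at least 10, and in each list the 2 called genes that rose most and the 2 that fell most. Near-identical and overlapping genes are uncertain in these counts.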

Additional observations from a re-analysis of the deposited data

How the results depend on the processing

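The count of 15 called clustered protocadherins was the same under TMM factors, equal totals, cyclic loess, pseudocounts of 5 and 0.5, vooma weights and no variance trend; it was 14 with a mean of at least 50 and 14 in the authors' deposited table. It was 2 with alpha and gamma as 1 row each, and 0 without a minimum (15 with an unadjusted p under 0.05; limma then called 0 of 24187 genes). Without any 1 library it was 0 to 0 (15 to 18 unadjusted), as for every gene list (0 to 0). The replicate numbers do not pair the libraries (correlation of deviations between same-numbered libraries -0.051), and the replicate block also gave 15 clustered protocadherins. The Prox1 over GFP signal, 0.408 for alpha, 1.32 for beta and 1.16 for gamma, was 0.381 to 0.439, 1.25 to 1.40 and 1.09 to 1.23 with 1 library left out, and the alpha over gamma ratio 0.348 to 0.384; other alternatives moved these by less than the spread between replicates. Of the lists, regulators had 2 calls, but 3 with TMM factors, equal totals or cyclic loess, 0 without a minimum, 5 with a mean of at least 50, 4 with the replicate block, 0 without the trend and 0 in the authors' table. Partners had 3, and 0 without a minimum. Other protocadherins had 1, and 0 without a minimum, with a mean of at least 50 and in the authors' table. Cadherins had 2, with 0 without a minimum and 1 with a mean of at least 50, without the trend and in the authors' table. Neighbours had 2, with 0 without a minimum and 1 without the trend and in the authors' table. No gene named by the rule given under processing changed sign under any of these fits. Other genes mentioned in the text were not followed in this way. The causes were not tested. edgeR and DESeq2 were not run, since raw reads are not given back by rounded values. Low counts limit the beta genes, 11 of which were too low to test.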
